A study of Rattus norvegicus with 10 samples.

Results

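The Cdh9 locus was examined in a rat model of epilepsy together with the 2 Mb of chromosome 2 that surround it. The members were all regions of the methyl-capture count table that overlapped chr2:65900000-67900000 on the rat genome build RN4, an interval laid around 1 region, chr2:66876678-66877302, which the study places in an intron of Cdh9. The interval held 133 of the 574544 regions of the table, or the Cdh9 intron region and 132 neighbours. The neighbours were chosen by position alone, but that position was set by the Cdh9 intron region. The Cdh9 intron region was picked by the study for its difference in these same rats, so its values are a description here and no independent evidence of a change. The study listed it because Cdh9 mRNA differed too, and reports that mRNA as upregulated in this model.

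Methyl-capture sequencing was done on DNA of the CA3 and dentate gyrus fields of the left hippocampus from male Sprague-Dawley rats, with 1 library per rat, 3 months after status epilepticus (SE). SE was evoked by electrical stimulation of the left lateral amygdala. Controls were sham operated, of matched age, and carried the same electrodes without being stimulated. Both groups therefore share the surgery and the implant, and the tissue holds a mixture of neurons and glia whose proportions were not measured. Per the paper, diazepam was given to end SE, and it is described for stimulated rats only. The paper also states that every stimulated rat enrolled had spontaneous seizures. Neither can be told apart from the stimulation here. Control rats 1, 3, 4 and 5 were compared with SE rats 6, 8, 9 and 10. Control rat 2 and SE rat 7 are marked as discarded in the labels, and their values are given separately. Totals of the 8 libraries used ran from 5499370 to 7179519 tags, and no value below is a methylation level of single cytosines.

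Cdh9 encodes cadherin 9, a type II classical cadherin, a calcium-dependent adhesion protein of the cell surface that binds its own kind on the neighbouring cell. In the hippocampus it is known from dentate granule cells and CA3 pyramidal neurons, where it takes part in building the mossy fibre synapses that join these cell types, so the tissue sampled is the one in which this cadherin has its best known role. Type II cadherin genes lie in clusters in gene-poor stretches of the genome. In the RefSeq annotation of a later assembly, GRCr8, used here for the order of genes only, the protein-coding genes before Cdh9 were Drosha, Cdh6, LOC134485856 and Cln5l1, and those after it were LOC120100997, LOC120100998, Cdh10, Cdh12 and Cdh18. Cdh6, Cdh10, Cdh12 and Cdh18 are type II cadherins as well, and Drosha is the nuclear enzyme that cuts primary microRNA transcripts. Which of these genes lie inside the RN4 interval was not analysed here. In methyl-capture, a methyl-CpG binding domain holds back methylated double-stranded DNA, and fragments with more methylated CpG sites are held more firmly, so that CpG-poor DNA gives few tags.

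The surroundings of Cdh9 were thinly covered. The table had 66.5 regions per Mb in the interval, against 176 on chromosome 2 and 223 over the autosomes, and its regions covered 3.04% of the interval against 11.7% of the autosomes. Local density, the number of other regions with their centre within 50 kb on either side, had a median of 8 in the interval (range 1 to 14), while the median was 26 on chromosome 2 and 32 in the whole table. The gap between adjacent regions had a median of 7.58 kb. The longest gap, 172 kb, began 393 kb beyond the Cdh9 intron region on the side of higher coordinates. The regions themselves were of usual size and depth, with a median length of 435 bp (range 186 to 1152) and a median of 8.5 tags per library, against 457 bp and 8.75 tags in the table. They were few rather than weak.

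Of the 133 regions, 64 passed the filter on low counts (48.1%, against 50.8% of the table), which asked for at least 70 tags summed over the 8 rats. These 64 are the Cdh9 intron region and 63 neighbours, and they held a median of 10.8 tags per library. The other 69 are described apart. Normalised counts below are counts per 1000000 tested tags (CPM) after scaling by the trimmed mean of M-values (TMM), and fold changes are log2 values of SE over control, so negative values mean fewer tags after SE.

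The Cdh9 intron region was 624 bp long, the 14th longest of the 133 and the 16th by its total count. It held 14, 26, 17 and 19 tags in control rats 1, 3, 4 and 5, and 6, 7, 10 and 10 tags in SE rats 6, 8, 9 and 10. Every SE rat had fewer tags than every control rat, and in bulk tissue a change in the mix of cells and a change of methylation within cells cannot be told apart. The normalised counts were 3.38, 6.43, 4.40 and 3.93 CPM in the control rats and 1.39, 1.68, 2.41 and 1.91 CPM in the SE rats, with means of 4.53 ± 1.33 and 1.85 ± 0.434 CPM (SD, n = 4 each). The log2 fold change, -1.28, had a standard error of 0.34. By the quasi-likelihood test of edgeR the region ranked within the lowest 0.0723% of p-values, and after Benjamini-Hochberg adjustment over the 291987 tested regions it did not pass 0.05 (adjusted p = 0.423). With the discarded rats added the groups overlapped: per 1000000 tags of the table, control rat 2 had 1.54 (11 tags), below the 1.73 of SE rat 9, whereas the used control rats began at 2.44. SE rat 7 had no tag there in a library of 14655629, which allows up to 0.205 per 1000000 (3 counts of the total, covering counting error alone).

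**Figure D1:**
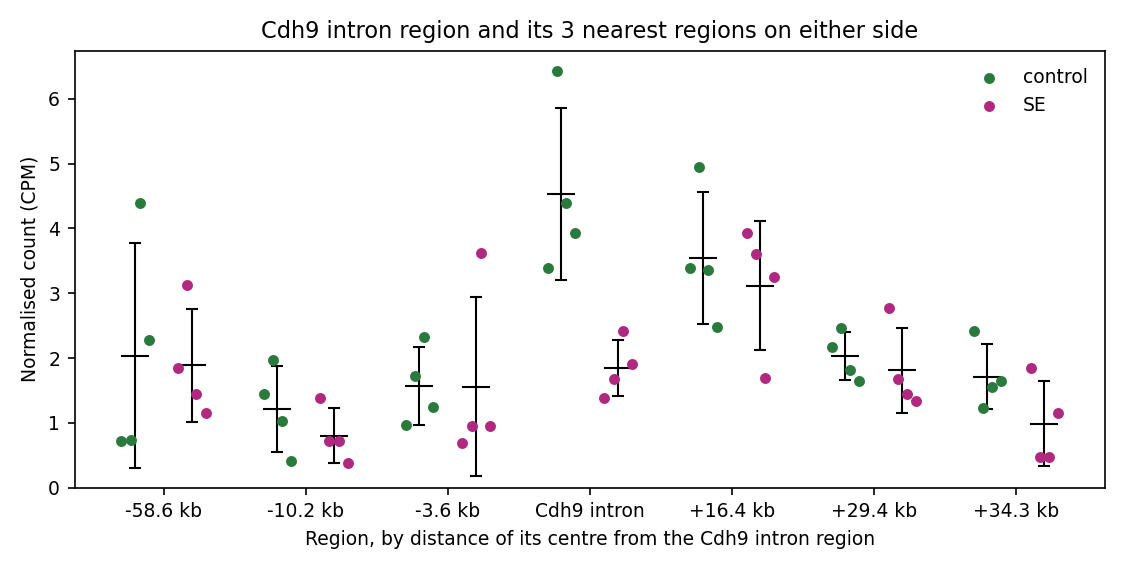
Normalised count (CPM, y axis) of each of the 8 rats used in the Cdh9 intron region and in the 3 nearest regions on either side, ordered by the distance of their centres (x axis). Green points are control rats and magenta points SE rats, and bars give the mean ± SD (n = 4 each). The groups are apart at the Cdh9 intron region and overlap at all 6 nearest regions.

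The regions next to it did not show a separation of that kind. On the side of lower coordinates, the adjacent region chr2:66873201-66873611 held 4, 7, 9 and 6 tags in the control rats and 3, 4, 15 and 5 in the SE rats (in the order of rats above), and SE rat 9 stood far above the other SE rats. The next, chr2:66866632-66866852, held 6, 8, 4 and 2 against 6, 3, 3 and 2 tags, and chr2:66818161-66818688 held 3, 3, 17 and 11 against 8, 13, 6 and 6. In all 3 the groups overlapped. On the side of higher coordinates the nearest, chr2:66893063-66893622, at 16.4 kb, was the only one of the 6 to pass the filter. It held 14, 20, 13 and 12 tags in the control rats and 17, 15, 7 and 17 in the SE rats, or 3.54 ± 1.02 against 3.12 ± 0.992 CPM (SD, n = 4 each). Its log2 fold change, -0.17, had a standard error of 0.32 (edgeR quasi-likelihood test, adjusted p = 0.958), so a tested region of similar depth close to Cdh9 showed no difference beyond the spread between rats. It is also the only named region among those tested whose sign turned under other settings, to 0.026 with offsets on local density, 0.038 without control rat 3 and 0.036 without SE rat 9. Beyond it, chr2:66906156-66906554 held 9, 10, 7 and 8 against 12, 7, 6 and 7 tags, and chr2:66911166-66911440 held 10, 5, 6 and 8 against 8, 2, 2 and 6. The difference between these regions and the Cdh9 intron region was not tested, because the latter was chosen for its difference.

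Over the whole interval the tested neighbours leaned to fewer tags after SE. Of the 63, 57 had a negative fold change (90.5%), where 49.7% of all tested regions did. Other regions of low density leaned the same way, with 74.6% negative at a density of 5 to 9 and 64.9% at 10 to 19. The median log2 fold change of the 63 neighbours was -0.52, with a range from -1.53 to 0.22, against -0.08 on chromosome 2 and 0.00 over all tested regions. At p below 0.01 in the edgeR quasi-likelihood test, 5 neighbours were lower in SE, or 7.94%, where 1.07% of all tested regions were called lower. None was higher, where 0.584% of all tested regions were, and none was higher at an unadjusted p below 0.05 in edgeR or at p below 0.01 in DESeq2 (0.139% of all tested regions there). At p below 0.05, 17 neighbours were lower, or 27.0%, against 3.97% of all tested regions (2.93% were higher). All SE rats lay below all control rats in 6 neighbours (9.52%, against 1.94% of all tested regions) and above them in none (1.69%). No neighbour passed an adjusted p of 0.05 in edgeR, the smallest being 0.426. The count of 5 moved with single rats, to 1 of 56 tested without control rat 4 (0.857% of all tested regions), 2 of 63 without SE rat 9 (0.889%), 9 of 60 without control rat 3 (0.963%) and 10 of 62 without control rat 1 (1.32%).

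**Figure D2:**
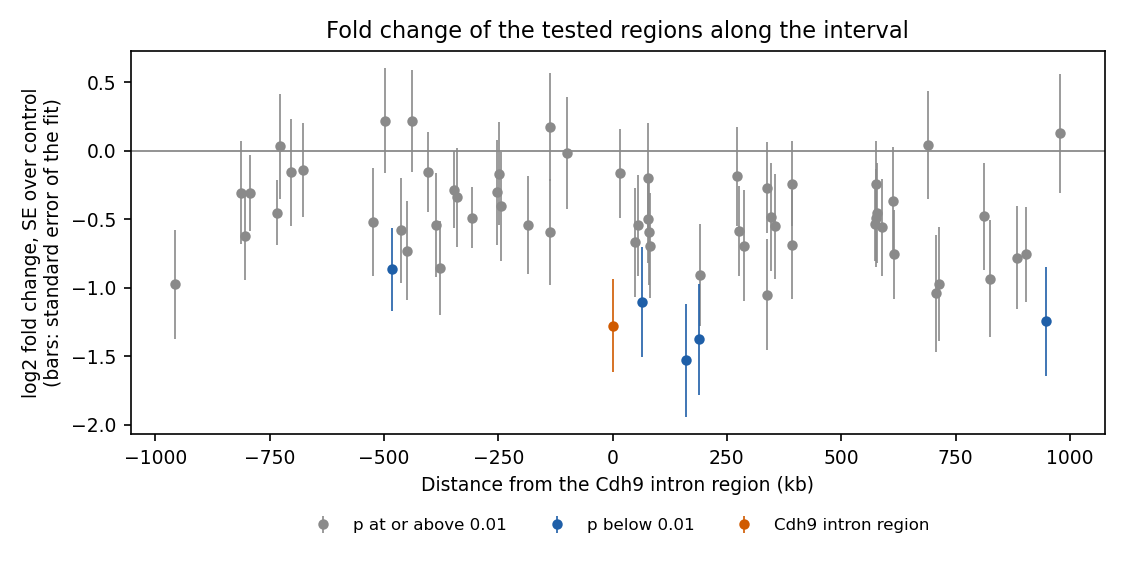
The log2 fold change of SE over control (y axis, bars are the standard error of the fit) for the 64 tested regions against their distance from the Cdh9 intron region in kb (x axis, higher coordinates to the right). Grey points have a p at or above 0.01, blue points are the 5 neighbours with p below 0.01 and the orange point is the Cdh9 intron region. Of the 63 neighbours, 57 lie below 0, on both sides of the Cdh9 intron region.

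The lean was spread along the interval. Within 100 kb, 8 of 8 tested neighbours had a negative fold change, with a median of -0.57, and all of them lay at higher coordinates. The nearest tested neighbour at lower coordinates, 100 kb away, had a log2 fold change of -0.018. Between 100 and 500 kb the negative neighbours were 27 of 30, with a median of -0.51, and beyond 500 kb 22 of 25, with a median of -0.49. Both sides were on the negative side of 0 as well. At lower coordinates 23 of 27 were negative with a median of -0.34, and 1 (3.70%) was called lower at p below 0.01. At higher coordinates 34 of 36 were negative with a median of -0.57, and 4 (11.1%) were called lower. Over all tested regions, 49.7% were negative and 1.07% were called lower. Among other tested regions the share called lower was 5.89% at a density of 0 to 4, 4.61% at 5 to 9 and 2.60% at 10 to 19. Neighbouring regions come from the same 8 libraries, so they are not independent samples of the comparison.

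The 5 neighbours with p below 0.01 lay on both sides of the Cdh9 intron region, 1 at lower and 4 at higher coordinates. The lowest p belonged to chr2:67037268-67037865, 597 bp long and 161 kb away, which held 11, 19, 17 and 14 tags in the control rats and 11, 7, 2 and 2 in the SE rats. In CPM all SE rats lay below all control rats, narrowly for SE rat 6 (2.54 against 2.66 in control rat 1) and widely for SE rats 9 and 10. Its mean was 3.66 ± 1.03 CPM in control and 1.27 ± 1.03 CPM in SE, or -1.53 on the log2 scale with a standard error of 0.41 (edgeR quasi-likelihood test, adjusted p = 0.426). This was a larger fold change than that of the Cdh9 intron region, with standard errors that overlap widely. At 190 kb, chr2:67066734-67067341 held 7, 13, 21 and 16 against 5, 8, 3 and 7 tags, with a log2 fold change of -1.38 (edgeR adjusted p = 0.488). Its groups overlapped, since control rat 1 (1.69 CPM) lay below SE rat 8 (1.92 CPM).

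At 63.5 kb, chr2:66940331-66940735 held 8, 11, 16 and 14 tags in the control rats and 4, 5, 6 and 9 in the SE rats, with a log2 fold change of -1.10 (edgeR adjusted p = 0.587). Its groups were apart in CPM. Near the far end, at 947 kb, chr2:67823968-67824457 held 9, 11, 18 and 16 against 5, 6, 3 and 10 tags, with a log2 fold change of -1.25 (edgeR adjusted p = 0.538), and its groups were apart too. The only called neighbour at lower coordinates, chr2:66393719-66394627, held 22, 10, 26 and 30 tags in the control rats and 11, 10, 10 and 20 in the SE rats, with a log2 fold change of -0.87 (edgeR adjusted p = 0.572). Here the groups overlapped, because control rat 3 had 2.47 CPM and SE rat 10 had 3.82 CPM. None of the 5 had an adjusted p below 0.05 in edgeR.

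Next in rank came 5 regions with an unadjusted p between 0.01 and 0.05, all with fewer tags in SE on average. They were chr2:67214031-67214488 with a log2 fold change of -1.05 (edgeR adjusted p = 0.614), chr2:66498937-66499602 with -0.85 (adjusted p = 0.632), chr2:67067894-67068368 with -0.91 (adjusted p = 0.639), chr2:65920335-65920894 with -0.98 (adjusted p = 0.639) and chr2:67582998-67583454 with -1.04 (adjusted p = 0.639). Single rats stood out in several of them. Control rat 5 held 35 of the tags of chr2:66498937-66499602 while the other control rats held 11, 11 and 14, and it held 26 of those of chr2:67214031-67214488 while the others held 8, 6 and 12. In chr2:67582998-67583454 the tags ran from 5 to 21 in the control rats and from 1 to 14 in the SE rats. In chr2:67067894-67068368, a kilobase beyond one of the called neighbours, they were 13, 18, 13 and 13 against 13, 5, 7 and 7. Only chr2:65920335-65920894 had its groups apart, with 9, 16, 9 and 13 against 4, 7, 7 and 7 tags.

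The 3 regions with the most tags had fold changes close to the median of the tested neighbours, -0.52. The highest mean belonged to chr2:66568755-66569907, at 1152 bp also the longest of the interval, which held 22, 42, 36 and 49 tags in the control rats and 26, 20, 33 and 33 in the SE rats. Control rat 1 (5.32 CPM) was the low one of its group and lay among the SE rats (4.80 to 7.97 CPM), while the other control rats were above them all. Its log2 fold change, -0.49, had a standard error of 0.22 (edgeR quasi-likelihood test, adjusted p = 0.689). In chr2:66142200-66143299 the tags were 21, 27, 32 and 48 against 27, 18, 28 and 25, a log2 fold change of -0.45 (edgeR adjusted p = 0.737). In chr2:67450399-67451203 they were 26, 13, 23 and 36 against 16, 24, 12 and 19, a log2 fold change of -0.53 (edgeR adjusted p = 0.732). Both missed an unadjusted p of 0.05 too, and their groups overlapped.

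Likeness to the Cdh9 intron region was measured on log2(CPM + 0.5), with each region centred on its own mean. It was the root mean square difference over the 8 rats. Over the tested neighbours it ran from 0.215 to 1.02 with a median of 0.592, a lower value meaning a closer pattern. The closest were chr2:65920335-65920894 at 0.215, chr2:66940331-66940735 at 0.308 and chr2:66568755-66569907 at 0.400. These lie far apart, the first at the end of lower coordinates and the second within 100 kb of Cdh9. The measure covers 8 points that share the group difference, and it is a description only.

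The 6 tested neighbours with a positive fold change ran from 0.03 to 0.22 on the log2 scale, and none had a p below 0.05 in edgeR. The highest, chr2:66379636-66380175, held 5, 5, 16 and 14 tags in the control rats and 11, 7, 20 and 11 in the SE rats (log2 fold change 0.22, edgeR adjusted p = 0.950), so its spread within each group was far wider than the difference. It was chosen for its value. The sparse neighbourhood of Cdh9 thus held no region with a gain of tags that the test could tell from 0, at a depth at which a tested region had about 11 tags per rat.

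The 69 regions under the filter, with 1.38 to 8.63 tags per library on average, were fitted in an edgeR run without the filter. Of these, 53 had a negative log2 fold change, with a median of -0.37 and a range from -1.69 to 1.35, where the median over all 574544 regions of that fit was -0.0010. At p below 0.01, 3 of the 69 were lower and 0 were higher, where 0.856% and 0.525% of all regions were. At an unadjusted p below 0.05, 8 were lower and 0 higher, where 3.47% and 2.7% of all regions were. The 3, named for their p, all lie toward the far end, 609 to 954 kb beyond Cdh9. The lowest, chr2:67830524-67830911, held 4, 15, 6 and 13 tags in the control rats and 3, 1, 3 and 5 in the SE rats (log2 fold change -1.69 with a standard error of 0.49). It lies close to the called neighbour at 947 kb.

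Summing tags over the neighbours gave 1 value per rat with little counting error. The neighbours held 1050, 1231, 1297 and 1661 tags in control rats 1, 3, 4 and 5, or 0.0183%, 0.0216%, 0.0236% and 0.0246% of each library. They held 1032, 980, 862 and 1115 tags in SE rats 6, 8, 9 and 10, or 0.0174%, 0.0169%, 0.0149% and 0.0155%. All SE rats lay below all control rats, with control rat 1 close to SE rat 6. By the median over the 63 tested neighbours of log2(CPM + 0.5), centred on each region's mean, the groups overlapped: it was -0.15 in control rat 1, below SE rats 6 and 8 (-0.12 in each), and 0.23, 0.37 and 0.43 in the other control rats, with -0.24 and -0.20 in SE rats 9 and 10. The mean share was 0.0220 ± 0.00278% in control and 0.0162 ± 0.00115% in SE (SD, n = 4 each), so it fell by 26.5% (log2 ratio -0.45, exact two-sided permutation p = 0.0286). That p is the smallest 4 rats against 4 can give. The interval was also laid around a region picked for a low count in these SE rats. With an interval 1 Mb larger on either side the log2 ratio was -0.41, the groups overlapped and the exact permutation p was 0.0571. With control rat 2 added (0.0172%, below SE rat 6) the groups also overlapped, at a log2 ratio of -0.38 and an exact permutation p of 0.0317.

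By sections of 500 kb, the drop was larger at higher coordinates. In section 1 (25 regions), at the lowest coordinates, the share fell by 14.0% (exact permutation p = 0.171, also after adjustment over the 4 sections), and in section 2 (37 regions), in which the Cdh9 intron region lies but is not counted, it fell by 20.1% (exact permutation p = 0.0571, adjusted 0.0762). In section 3 (36 regions) and section 4 (34 regions) it fell by 34.0% and 33.6% (exact permutation p = 0.0286 in each, adjusted 0.0571), and in both the groups were apart. The contrast between the sides was then tested by itself, a test chosen after these values were seen. The tags of sections 3 and 4 over those of sections 1 and 2 were 1.16, 1.29, 1.25 and 1.16 in the control rats and 1.10, 0.976, 0.916 and 0.916 in the SE rats. The ratio was lower in all SE rats than in all control rats (1.21 ± 0.0636 against 0.976 ± 0.0857, SD, n = 4 each, exact two-sided permutation p = 0.0286). Control rat 2 (1.04) lay inside the SE range and SE rat 7 (0.831) below it.

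**Figure D3:**
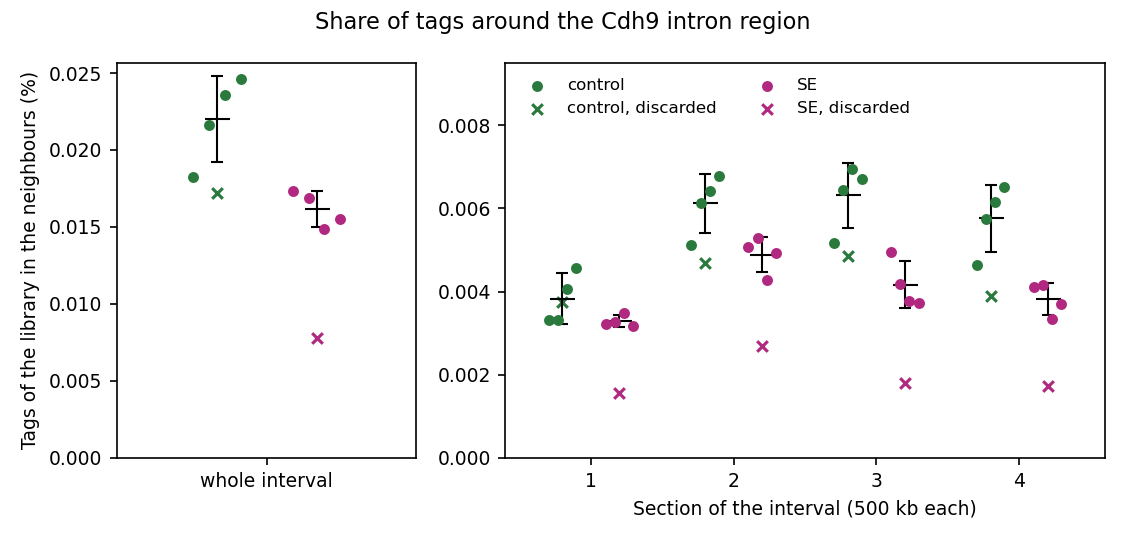
Percent of each library's tags that fall in the neighbours of the Cdh9 intron region (y axis), for the whole interval on the left and for each of its 4 sections of 500 kb on the right (x axis, ordered by rising coordinate). Points are rats used (green control, magenta SE), bars give the mean ± SD (n = 4 each) and crosses are the discarded rats. In sections 3 and 4 and in the whole interval all used SE rats lie below all used control rats.

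The Cdh9 intron region was also set against its neighbourhood within each rat. Per 1000 tags of the neighbours it held 13.3, 21.1, 13.1 and 11.4 tags in the control rats and 5.81, 7.14, 11.6 and 8.97 in the SE rats. The means were 14.8 ± 4.33 and 8.38 ± 2.51 (SD, n = 4 each), a log2 ratio of -0.82 where the ratio of the normalised counts was -1.30. On this scale SE rat 9 reached just above control rat 5, so the groups touched. No test is given, since the region was chosen for its difference.

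Regions with few others around them had fewer tags after SE elsewhere in the genome too, and the interval was compared with them. Other regions with the interval's densities, from 1 to 14, numbered 86793. They held 13.9%, 15.2%, 16.3% and 15.7% of the tags in the control rats and 13.5%, 13.8%, 13.1% and 12.7% in the SE rats, a mean that fell by 13.1%. All SE rats again lay below all control rats, narrowly for SE rat 8 (13.83%) against control rat 1 (13.87%). The discarded control rat 2, with 12.9%, lay inside the SE range. Per 10000 tags of these regions, the neighbours of Cdh9 held 14.4 ± 1.04 tags in control and 12.2 ± 0.606 in SE (SD, n = 4 each), with the groups apart, and so fell by 15.3% relative to regions of like density (log2 ratio -0.24, exact two-sided permutation p = 0.0286). This denominator was chosen after the data were seen. As sums of tags, sparse regions in general thus fell, on the log2 scale, by 0.20, and the neighbours of Cdh9 by 0.24 relative to them.

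Over the rest of the table, single regions were lower in SE more often where density was low. Among all other tested regions, the share called lower at p below 0.01 was 5.89% at a density of 0 to 4, 4.61% at 5 to 9, 2.60% at 10 to 19, 0.653% at 20 to 39 and 0.242% at 40 or more, and the median log2 fold change passed from -0.29 through -0.28, -0.15 and 0.02 to 0.08. The share called higher rose from 0.0992% to 0.834% over the same classes. Of the tested neighbours of Cdh9, 42 had a density of 5 to 9, with a median log2 fold change of -0.51 and 3 called lower (7.14%), and 15 had a density of 10 to 19, with a median of -0.58 and 2 called lower (13.3%). The neighbours did not follow that order. The 6 sparsest had a median of -0.15, nearer to 0 than the -0.29 of other regions of their class, with 0 called at p below 0.01 in edgeR and 1 lower at an unadjusted p below 0.05. By class from 0 to 4 up, 66.7%, 92.9% and 93.3% of the neighbours had a negative fold change, against 76.2%, 74.6% and 64.9% of other regions. Lower at an unadjusted p below 0.05 in edgeR were 16.7%, 28.6% and 26.7%, against 15.5%, 14.3% and 8.89%. All SE rats lay below all control rats in 16.7%, 7.14% and 13.3%, against 5.82%, 5.22% and 3.67%. With offsets that take out each library's trend on density, the median of the 63 neighbours was -0.32, 2 were called lower and 0 higher (0.694% and 0.546% of all tested regions in that edgeR fit), and the Cdh9 intron region had a log2 fold change of -1.04 (edgeR adjusted p = 0.759). Whether CpG density, which could not be read without a genome of this build, moves with these values was not tested.

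**Figure D4:**
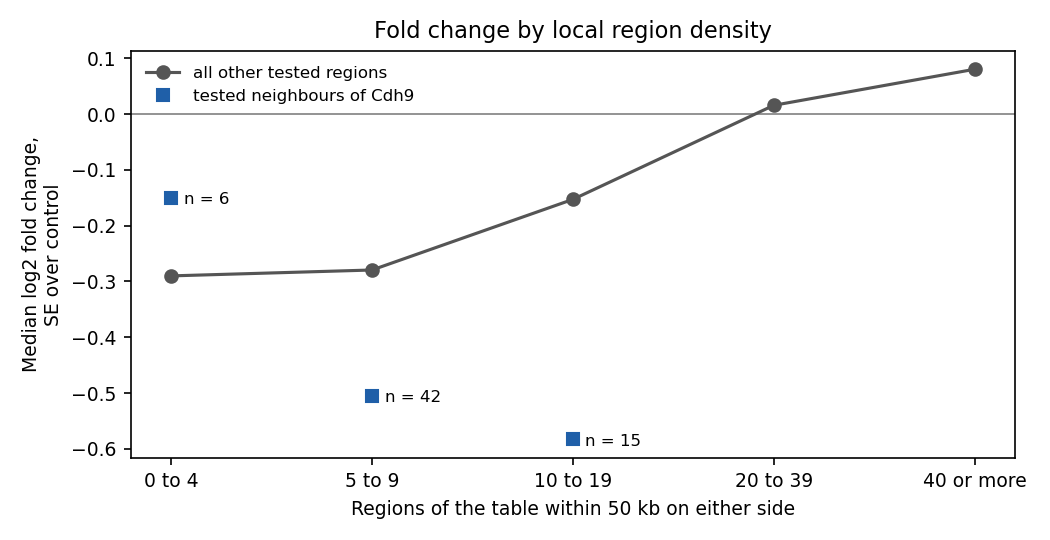
Median log2 fold change of SE over control (y axis) by the number of other regions within 50 kb on either side (x axis, 5 classes). Grey circles are all other tested regions of the table and blue squares the tested neighbours of the Cdh9 intron region, with their number. The grey line climbs from -0.29 to 0.08, and the neighbours with a density of 5 to 19 lie below it.

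Against windows of 2 Mb laid over the autosomes, the interval was sparse, and its drop was among the larger ones. Of 1286 other windows, 4.51% held fewer regions than the interval. All SE rats lay below all control rats, by the share of tags, in 21.5% of all windows and in 41.7% of the 348 windows with 75 to 266 regions, so groups set apart in this direction are common among sparse windows. The median log2 ratio of SE over control was -0.03 over all windows and -0.23 over the 348. At or below the -0.45 of the Cdh9 interval were 2 windows. This rank is a description of these 8 libraries. The interval was laid around a region picked for a low count in SE, which the windows were not.

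The discarded SE rat 7 stood apart, at this locus and in sparse regions generally. Its library was the largest, with 14655629 tags, yet its neighbours' share was 0.00779%, under that of every other rat. The other regions with densities from 1 to 14 held 8.86% of its tags, where they held 12.7% to 16.3% in the rats used. It had no tag in 47 of the 133 regions (35.3%, against 9.95% of the table), where the used rats had none in 0 to 4 regions and control rat 2 in 6. These 47 regions had a median of 9.75 tags per library in the 8 rats used. In 56 other regions it had 10 or more tags, with a median of 16, against a median of 5.44 tags per library in the rats used. Of these 56, 47 were under the filter, with a median of 4.63 tags per library in the rats used. Both sets were picked on the count of SE rat 7, in a table of regions that differed between some pair of libraries. Their contrast with the rats used can be set in part by that choice and is a description only. The highest value, 45 tags, was in chr2:66691424-66692003, where the rats used held 8 to 18, and this region is named for that value.

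**Figure D5:**
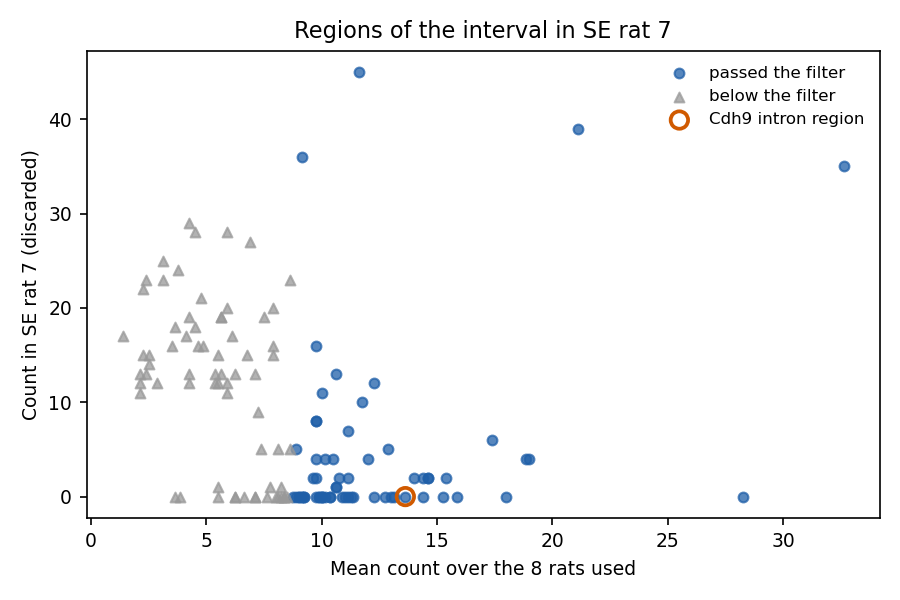
Tag count in the discarded SE rat 7 (y axis) against the mean count over the 8 rats used (x axis) for the 133 regions of the interval. Blue circles passed the filter on low counts, grey triangles did not, and the orange ring marks the Cdh9 intron region, at 0 tags. Regions with 10 or more tags in SE rat 7, picked on that count, are mostly those with a low mean in the rats used.

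The tested neighbours were therefore split by SE rat 7, which entered none of their fits. The 31 without a tag in that rat had a median log2 fold change of -0.52, with 29 negative and 2 called lower (6.45%). The 32 with at least 1 tag had a median of -0.51, with 28 negative and 3 called lower (9.38%). Over all tested regions, 49.7% were negative and 1.07% were called lower at p below 0.01. Among other tested regions, 5.89% were called lower at a density of 0 to 4, 4.61% at 5 to 9 and 2.60% at 10 to 19. The difference between the 2 sets was not tested. With SE rat 7 added to the fit, 1 of 37 tested neighbours was called lower, where 0.182% of all tested regions were, and the Cdh9 intron region had a log2 fold change of -1.72 and no longer had an edgeR p below 0.01, with a standard error of 0.66 in place of 0.34. The used rats were more alike in this respect, with 30.4% to 34.8% of their neighbour tags in regions under the filter, and control rat 2 had 33.5%.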

How the data were processed

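DNA of 10 rats (5 control, 5 SE) was captured with MethylMiner and sequenced as single reads of 36 bp. The values deposited by the authors are raw counts of tags in each region. Per the methods, tags were aligned to RN4 (BWA), MACS was run on each pair of libraries, regions that differed were merged (BEDTools), and tags left after removal of duplicates were counted. The table thus holds only regions in which some pair of libraries differed. The sources used here do not say whether the discarded rats entered that step. The smallest sum over the 8 rats used was 0 tags, which no pair of those rats could have called. At least part of the region set thus came from pairs with a discarded rat, and local density counts such regions. SE rat 7, the largest library, had the highest count of the 10 in 70.8% of the table's regions. The processing notes of the submitters name the same build and tools. All 10 count columns matched a label, and 0 were left over.

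Groups followed the labels, and the 2 rats marked as discarded were left out, as the methods give 4 per group. Regions with a summed count under the 50th percentile were removed, and the other 291987 entered, after TMM normalisation, a two-sided quasi-likelihood test in edgeR 4.0.16 (R 4.3.3) without covariates. As in the study, unadjusted p below 0.01 was the threshold, with Benjamini-Hochberg values over all tested regions beside it. Standard errors are the fold change over the root of the F statistic. Summed tags were compared by exact permutation tests over rats. Libraries total 5499370 to 7179519 tags, but a tested region of the interval holds about 11, so counting error limits single regions. Every pair of libraries differed by more than counting error (chi-square per degree of freedom from 1.27 to 1.70). The regions had been selected for a difference between some pair of libraries, which favours values above 1. Each library is 1 rat.

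The members and lists were chosen with earlier results of these data known. Named regions were the Cdh9 intron region, the 3 nearest on either side, tested neighbours with p below 0.01 and the next in rank to 10 in all, the 3 with the highest mean CPM and the 3 most alike in pattern. Regions named outside this rule are said to be. The fit was tested on simulated data. Alternatives were edgeR's exact test, DESeq2 1.42.0, other normalisations (limma 3.58.1 for loess), other filters, other extents, the discarded rats and each rat left out. Adding 1 discarded rat at a time, the denominators of chromosome 2 and of regions of like density, and the contrast of the sides were added after the data were seen. Sequences and annotation of RN4 and the mRNA libraries were not used here.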

Additional observations from a re-analysis of the deposited data

Results flagged for a closer look

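In chr2:66393719-66394627, SE rat 10 had 3.82 CPM while the other SE rats had 2.40 to 2.54, a gap larger than Dixon's critical value allows for 4 samples. In chr2:66873201-66873611, next to the Cdh9 intron region, SE rat 9 had 3.62 CPM while the other SE rats had 0.694 to 0.960, which passed the same limit. Of 50 groups tested in this way, chance marks about 1 in 20.

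SE rat 7, which entered no comparison between groups in the main analysis, had 73.7% of its neighbour tags in regions under the filter on low counts, where the rats used had 30.4% to 34.8% and control rat 2 had 33.5%. Over the whole table its share in such regions was 36.2%, against 27.8% to 28.5% in the rats used. SE rat 7 did not enter the sum on which the filter was set. Why the label marks this rat as discarded was not tested.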

How the results depend on the processing

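The Cdh9 intron region kept its direction in every alternative that could give a value, and p stayed below 0.01 except with all 10 libraries (log2 fold change -1.55) and with SE rat 7 added (-1.72). It ran from -1.41 to -1.06 with each rat left out. A filter of at least 10 tags in every library removes it, so that setting has no value. The 5 of 63 neighbours called lower (1.07% of all tested regions) became 3 with DESeq2 (0.349%), 2 with density offsets (0.694%) and 8 of 132 with no filter (0.856%). They became 1 of 10 tested with at least 10 tags in every library (1.39%), 3 of 38 with all 10 libraries (0.215%) and 1 of 37 with SE rat 7 added (0.182%). The smaller and larger interval gave 3 of 36 and 9 of 124 tested neighbours (1.07% of all tested regions). There were 17 at p below 0.05 (3.97%), and 1 to 10 with each rat left out (0.788% to 1.32%). No setting called a neighbour higher. The median of -0.52 moved to -0.32 both with density offsets and with at least 10 tags in every library, and lay between -0.61 and -0.39 with each rat left out. The log2 ratio of summed tags (-0.45) ran from -0.52 to -0.39 with each rat left out, the groups apart each time, but 3 rats against 4 cannot give an exact permutation p under 0.0571. It was -0.41 in the larger interval (exact permutation p = 0.0571). Among the 14 named tested neighbours the sign turned only for chr2:66893063-66893622, to 0.026 with density offsets, and it ran from -0.31 to 0.038 with each rat left out (0.038 without control rat 3, 0.036 without SE rat 9). The filters change which regions are counted. Why the results moved with any of these settings was not tested. No paired analysis was possible because no rat number occurs in both groups. Single regions are limited by about 11 tags per rat.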
